A study of Mus musculus with 6 samples.

Results

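The collagen receptors described here are 7 genes: the discoidin domain receptor kinases Ddr1 and Ddr2, the collagen-binding integrin alpha chains Itga1, Itga2, Itga10 and Itga11, and Itgb1, the beta chain with which those alpha chains pair. They were taken by gene symbol (GENCODE M21, on GRCm38) from a table of 15176 genes, and all 7 were in it. RNA came from inguinal white adipose tissue, a subcutaneous fat pad, of mice on a high-fat diet, which both genotypes received. The controls were 4 Steap4f/f libraries (replicates 1, 2, 5 and 6), from mice with a floxed Steap4 gene, and the other group was 2 Steap4AKO libraries (replicates 2 and 3), from mice that lack Steap4 in adipocytes. The study asked how the metalloreductase Steap4 affects mitochondrial dysfunction under this diet. The Cre line, sex and age of the mice are not given in the labels, which also do not say whether the libraries stem from different mice, so that the errors below measure only the spread between these libraries.

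Collagen is read by cells through more than 1 kind of receptor. The discoidin domain receptors are tyrosine kinases whose extracellular discoidin domain binds native collagen, and their phosphorylation builds up slowly and lasts long. Ddr1 is known mainly from epithelial cells and binds fibrillar and basement membrane collagens, while Ddr2 is known from mesenchymal cells and binds fibrillar collagens. The integrins link collagen outside the cell to actin inside it. Among their alpha chains, those of Itga1 and Itga10 are known to prefer the network-forming collagens and those of Itga2 and Itga11 the fibrillar ones. Fat tissue is rich in both kinds of matrix, with a basement membrane around each adipocyte and fibrils in the septa between lobules.

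The set was chosen by the genotype difference of 1 of its genes: Ddr1 was among the 6 of 15006 tested genes (0.04%) that were higher in Steap4AKO at an adjusted p of 0.05 in limma, where 0.433% were lower. That call was lost under 10 of 16 other settings, with adjusted p-values from 0.0283 to 0.248 over the 16, among them leaving out Steap4f/f replicate 2, 5 or 6 or either Steap4AKO library (0.177, 0.154, 0.123, 0.248 and 0.0549). The genotype difference of the members is therefore given as values, with no test. The 6 libraries had summed values from 16573561 to 20547925. Steap4AKO replicate 2 stood apart, where 1068 genes exceeded all 5 other libraries by more than 2-fold, against 19 to 144 such genes in each of those. Steap4 itself was at 10899 ± 4104 (SD, n = 4) in the controls and 8163 ± 211 (SD, n = 2) in Steap4AKO with overlapping libraries, so its level in whole tissue did not check the labels. The 8 adipocyte markers summed to between 485721 and 645656 in the controls and to 308537 and 472398 in the Steap4AKO libraries, below every control. The labelled tissue thus carried its defining transcripts in both groups, but not at the same level. The means of 7 of the 8 were lower in Steap4AKO, and that of Lep was higher. In bulk tissue, fewer cells of a type and less RNA per cell cannot be told apart.

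The start regions of Ddr1, Itga1 and Itgb1, which were higher in both Steap4AKO libraries, are shown first, with Ddr2 beside its relative Ddr1. Itga2 was higher in both as well but was close to absent, and its window (13 CpGs, 1 GC box) is not printed. RefSeq (GRCm38.p6) gave a window of 300 bases around the start site for all 7 members, and 4 start sites for Ddr1. Of these the most upstream and the most downstream are printed. Each run is 5′ to 3′ on the gene's strand, and capitals mark GC boxes (GGGCGG on either strand), the sites that Sp1-type factors are known to bind.
Ddr1, most upstream start, chr17:35704550-35704849 (minus strand): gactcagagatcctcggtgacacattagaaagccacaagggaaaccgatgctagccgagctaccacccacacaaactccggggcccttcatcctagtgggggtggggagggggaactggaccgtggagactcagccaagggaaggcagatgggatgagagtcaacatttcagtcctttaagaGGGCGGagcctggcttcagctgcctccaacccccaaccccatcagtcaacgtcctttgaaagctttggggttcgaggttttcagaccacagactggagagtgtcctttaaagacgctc
Ddr1, most downstream start, chr17:35700541-35700840 (minus strand): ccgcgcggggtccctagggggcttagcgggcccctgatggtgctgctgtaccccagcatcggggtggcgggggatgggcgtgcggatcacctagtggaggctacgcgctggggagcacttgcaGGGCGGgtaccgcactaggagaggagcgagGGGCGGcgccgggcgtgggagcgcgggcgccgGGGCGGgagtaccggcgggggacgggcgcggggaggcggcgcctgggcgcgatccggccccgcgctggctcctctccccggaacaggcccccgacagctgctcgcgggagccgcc
Ddr2, chr1:170088895-170089194 (minus strand): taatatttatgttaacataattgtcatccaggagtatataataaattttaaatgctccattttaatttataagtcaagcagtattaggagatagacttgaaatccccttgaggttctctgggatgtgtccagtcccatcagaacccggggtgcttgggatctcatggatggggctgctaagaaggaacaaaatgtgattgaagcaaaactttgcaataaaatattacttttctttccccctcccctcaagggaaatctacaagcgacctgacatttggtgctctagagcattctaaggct
Itga1, chr13:115101915-115102214 (minus strand): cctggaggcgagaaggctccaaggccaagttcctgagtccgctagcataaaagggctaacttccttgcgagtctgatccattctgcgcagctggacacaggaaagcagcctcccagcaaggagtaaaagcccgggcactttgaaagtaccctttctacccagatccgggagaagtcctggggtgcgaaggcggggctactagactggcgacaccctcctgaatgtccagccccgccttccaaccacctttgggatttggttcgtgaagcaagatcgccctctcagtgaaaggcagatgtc
Itgb1, chr8:128685404-128685703 (plus strand): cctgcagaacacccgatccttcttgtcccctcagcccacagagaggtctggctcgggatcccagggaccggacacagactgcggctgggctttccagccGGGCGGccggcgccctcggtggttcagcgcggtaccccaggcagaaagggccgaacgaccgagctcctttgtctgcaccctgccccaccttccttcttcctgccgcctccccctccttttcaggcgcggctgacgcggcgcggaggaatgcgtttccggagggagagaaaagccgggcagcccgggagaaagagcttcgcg
The windows differed in composition. The most downstream Ddr1 window held 39 CpG dinucleotides and 3 GC boxes and was 77.7% G and C, whereas the most upstream one held 9 CpGs and 1 GC box. The Itgb1 window held 27 CpGs and 1 GC box, the Itga1 window 12 CpGs and no GC box, and the Ddr2 window 2 CpGs and no GC box at 39.0% G and C. The Ddr2 window lies inside the GENCODE span of the gene, whose upstream end on this strand is at 170110762. Its composition therefore need not be that of the most upstream Ddr2 start. Over all 32851 windows the median was 7 CpGs, and 35.7% held a GC box. Of the other motifs searched on both strands, TATAAA, the letters of the TATA box (in 13.6% of all windows), was found once in the Ddr2 window and in none of the other windows of the members. In the Ddr2 window it lay on the strand opposite to the gene, so it was not read as a TATA box of Ddr2. The E-box CANNTG (72.3% of all windows) occurred 2 times in the Itga1 window and 1 time in the Ddr2 window, the AP-1 motif TGANTCA (7.8%) and CCAAT (37.4%) occurred in neither, and none of these 3 was in the Itgb1 window. Both printed Ddr1 windows held 2 E-boxes and no AP-1 motif or CCAAT. Of the Ddr1 windows not printed, chr17:35701995-35702294 held 1 E-box, 1 AP-1 motif and 1 CCAAT, and chr17:35704090-35704389 held 0 of each. Gene-level values do not show which Ddr1 start was used.

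Ddr1 was 2.55-fold higher in Steap4AKO by the group means. Its normalized counts were 818.5, 1062, 1395 and 1019 in Steap4f/f replicates 1, 2, 5 and 6 and 2956 and 2528 in Steap4AKO replicates 2 and 3. Both Steap4AKO libraries stood above every Steap4f/f library, and the lower of them was 1.81-fold above the highest Steap4f/f value, a gap wider than the 1.70-fold range within Steap4f/f. The means were 1073 ± 239 (SD, n = 4) and 2742 ± 302 (SD, n = 2), and the difference was 1.37 (SE 0.21) on the log2(value + 1) scale. It was 1.26 with Steap4AKO replicate 3 alone and 1.49 with replicate 2 alone. The gene (ENSMUSG00000003534) lies on the minus strand of chromosome 17, from 35681567 to 35704621.

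Ddr2, the other kinase, showed no such separation. Its values were 2201, 1624, 1549 and 1536 in the controls and 2420 and 1677 in Steap4AKO. Steap4AKO replicate 3 lay inside the Steap4f/f range, and Steap4f/f replicate 1 lay well above the other 3 controls. The log2 difference was 0.24 (SE 0.21), and it was -0.03 without Steap4AKO replicate 2 and -0.02 with the level of skeletal muscle markers as a covariate. Ddr2 (chromosome 1, 169972307 to 170110762, minus strand) overlaps the antisense gene 3110045C21Rik, which had at most 18.4 in any library.

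**Figure D1:**
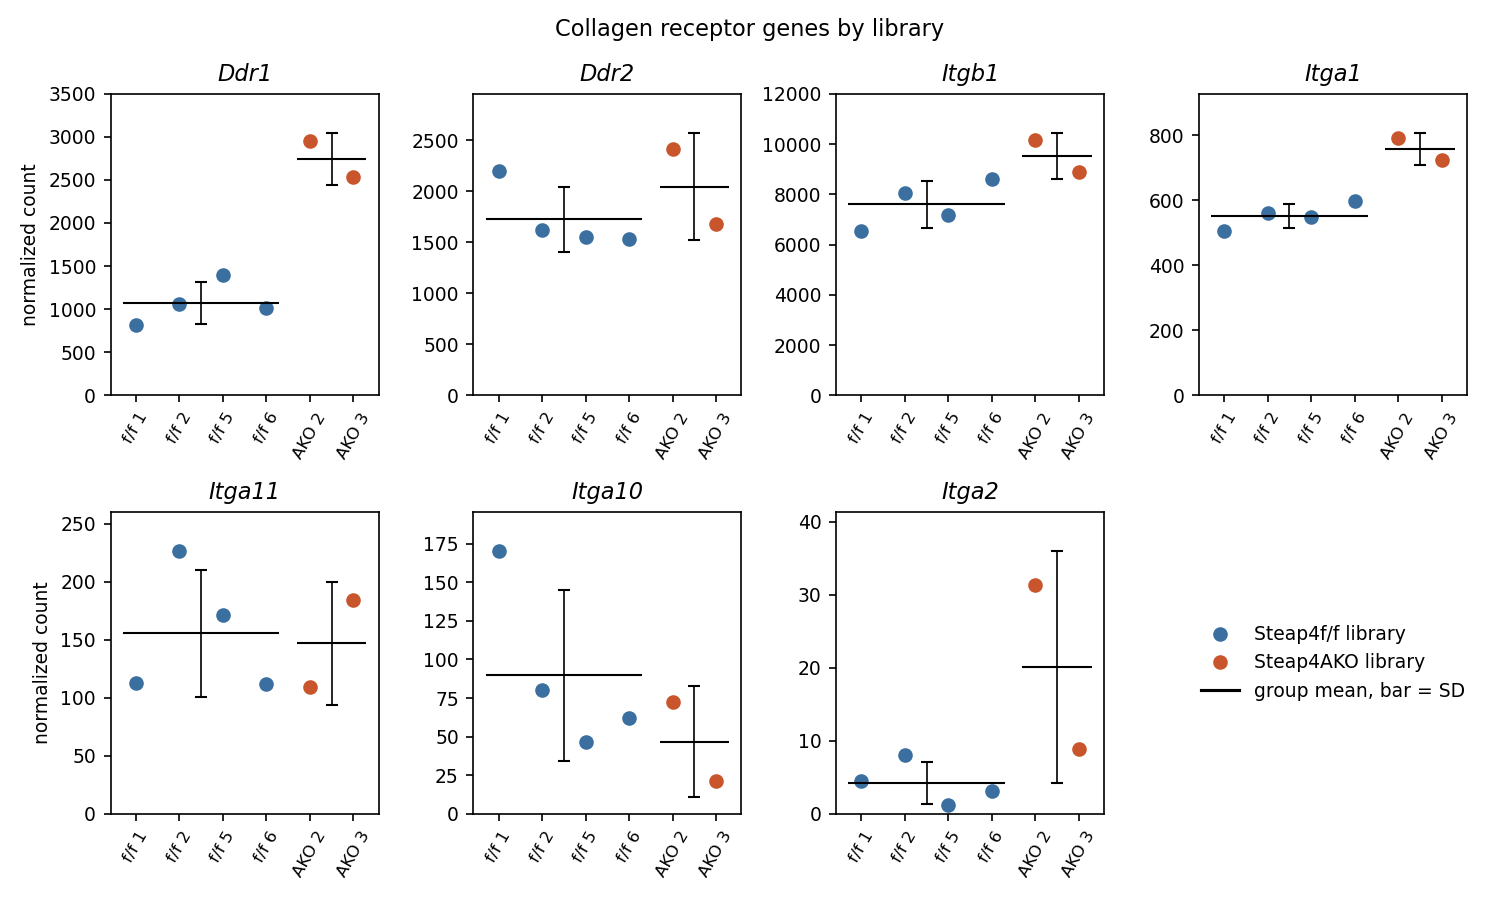
Normalized count of each collagen receptor gene (vertical axis, from 0, with its own scale per gene) in the 4 Steap4f/f and 2 Steap4AKO libraries, with group means and SD bars. For Ddr1 the Steap4AKO libraries sit at 2528 and 2956 above all controls, which end at 1395, while Ddr2, Itga11 and Itga10 overlap between the groups.

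Among the integrins, the beta chain Itgb1 was the most abundant and was higher without overlap, by a small margin. Its values were 6524, 8062, 7189 and 8628 in the controls and 10179 and 8886 in Steap4AKO. The lower Steap4AKO library was only 1.03-fold above the highest control, and the controls themselves spanned 1.32-fold. The group means differed 1.25-fold, with a log2 difference of 0.33 (SE 0.16). With all libraries scaled to the same total this was 0.52, where the median of all genes moved from 0.02 to 0.21, and with the muscle marker covariate it was 0.57. Itgb1 lies on the plus strand of chromosome 8, from 128685654 to 128733200.

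Itga1, the alpha chain known from smooth muscle, capillaries and some T cells, followed the same pattern. It had 506.8, 560.1, 548.3 and 596.2 in the controls and 792.6 and 723.5 in Steap4AKO. The controls were close together, with a 1.18-fold range, and the lower Steap4AKO library was 1.21-fold above the highest of them. The means were 552.8 ± 36.8 (SD, n = 4) and 758.1 ± 48.9 (SD, n = 2), a 1.37-fold difference and 0.46 (SE 0.15) on the log2 scale. Itga1 (chromosome 13, 114953096 to 115101964, minus strand) has the gene Pelo inside its span on the same strand, so that reads could be split between them. Pelo had 467.3, 330.9, 316.2 and 328.4 in the controls and 435.8 and 317.7 in Steap4AKO, which overlapped.

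Itga2, the alpha chain of platelets and epithelium, was close to absent. Its values were 4.5, 8.1, 1.2 and 3.2 in the controls and 31.3 and 8.9 in Steap4AKO, where the value of 1 read was estimated at 0.99 to 1.43. Steap4AKO replicate 3 therefore exceeded the highest control by less than the estimated value of 1 read, and Steap4AKO replicate 2 was the 1 library with a clear signal. The mean over the 6 libraries, 9.52, was under the minimum of 10, so Itga2 was the 1 member left out of the fit. Itga2 lies on chromosome 13, from 114833081 to 114932100, on the minus strand.

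The fibroblast chain Itga11 and the cartilage chain Itga10 overlapped between the groups. Itga11 had 113, 226.3, 171.6 and 112.1 in the controls and 109.5 and 184.7 in Steap4AKO, with 1 Steap4AKO library below all controls and the other among the higher ones. Its log2 difference of -0.07 (SE 0.38) was 0.12 with all libraries scaled to the same total and 0.31 without Steap4AKO replicate 2. Itga10 had 169.9, 80.3, 46.3 and 62.0 in the controls and 72.3 and 21.3 in Steap4AKO. Its controls spanned 3.67-fold, its group means were 1.91-fold lower in Steap4AKO, and its log2 difference was -0.99 (SE 0.65), or -0.13 with Steap4AKO replicate 2 alone and -1.85 with replicate 3 alone. Itga11 lies on chromosome 9 (62677826 to 62783982) and Itga10 on chromosome 3 (96645584 to 96664519), both on the plus strand.

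In all, 4 of the 7 members, Ddr1, Itgb1, Itga1 and Itga2, were above every control in both Steap4AKO libraries, 3 overlapped and none was below every control. Of the 6 members past the minimum mean, which leaves out Itga2, 3 were above, where 14.1% of the 15006 tested genes were. The same 4 members stood above the controls under each of the other 3 scalings tried. Since the genotype difference chose the set, nothing is read from these counts.

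Levels of different genes can be compared only per length, here as the normalized count per 1000 bases of merged exons. In Steap4f/f the order was Itgb1 at 1862 ± 228, Ddr1 at 224.9 ± 50.1, Ddr2 at 186.5 ± 34.3, Itga11 at 30.4 ± 10.7, Itga1 at 29.7 ± 2.0, Itga10 at 17.3 ± 10.7 and Itga2 at 0.59 ± 0.41 (SD, n = 4). Ddr1 and Ddr2 had overlapping controls, as had Itga11, Itga1 and Itga10, whereas Itgb1 and Itga2 stood clear of their neighbours and both kinases stood clear of the alpha chains. With the length of the longest transcript in place of merged exons, Itga1 came to 50.4 ± 3.4 and Itga11 to 31.3 ± 11.0, and the controls of these 2 no longer overlapped. In Steap4AKO, Ddr1 was at 574.3 ± 63.4 and Ddr2 at 221.1 ± 56.8 (SD, n = 2), and their libraries did not overlap.

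A ratio of 2 genes within a library does not change when all values of that library are multiplied by 1 factor. The Ddr1 to Ddr2 ratio per length was 0.72, 1.27, 1.75 and 1.29 in the controls and 2.37 and 2.93 in Steap4AKO. Steap4f/f replicate 1 was the 1 library with less Ddr1 than Ddr2. Ddr1 relative to Itgb1 was 10.7, 11.3, 16.6 and 10.1% in the controls and 24.8 and 24.3% in Steap4AKO. Both ratios reuse the Ddr1 values by which the set was chosen, so their genotype difference is a description only. Itga1 relative to Itgb1 hardly varied, at 1.71, 1.52, 1.67 and 1.52% in the controls and 1.71 and 1.79% in Steap4AKO. Among the 4 collagen-binding alpha chains, Itga1 held 33.0 to 48.3% of the summed level per length in the controls and 51.8 and 48.5% in Steap4AKO. All 4 together made up 5.17 to 6.86% of the 12 alpha chains counted here as partners of Itgb1 in Steap4f/f, and 4.21 and 4.90% in Steap4AKO, while Itga7 was the highest of those partners, at 630.4 ± 77.4 per 1000 bases (SD, n = 4) in Steap4f/f.

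**Figure D2:**
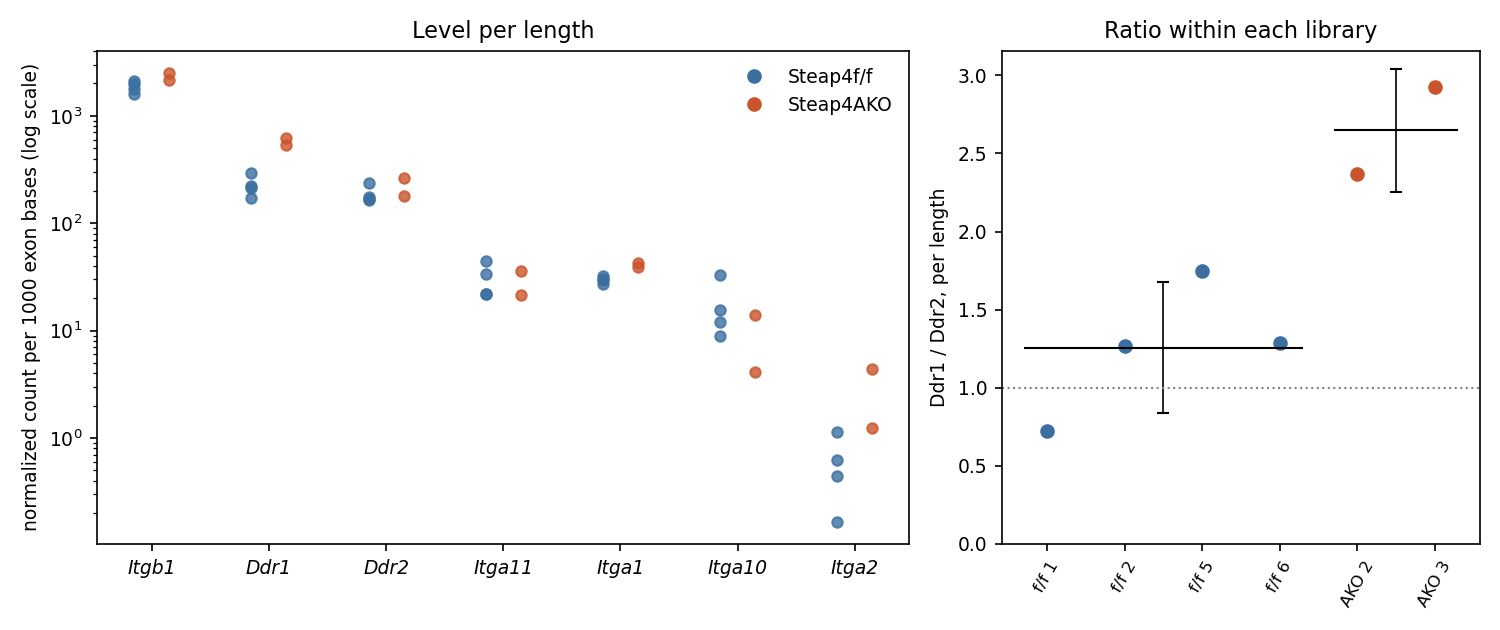
Left, normalized count per 1000 exon bases of each collagen receptor gene on a log axis, 1 point per library; right, the Ddr1 to Ddr2 ratio per length in each library, with group means and SD bars. Itgb1 lies highest in both groups, and the Ddr1 to Ddr2 ratio is 0.72 to 1.75 in the controls and 2.37 and 2.93 in Steap4AKO.

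The likeness of 2 genes was measured as the root mean square distance between their log2 profiles over the 6 libraries, each centred on its mean. Among the members, Itga1 and Itgb1 were the closest pair, at 0.09, and Ddr1 was 0.48 from Itga1, its nearest member. Among 12331 genes with a mean of at least 50, the nearest to Ddr1 were Fmr1, an RNA-binding protein (0.13), Cys1, a protein of cilia (0.14), Lpgat1, a lysophospholipid acyltransferase (0.15), Adcyap1r1, the PACAP receptor (0.16), and Cdca7l (0.18). Fmr1 had 2619, 3986, 4774 and 2850 in the controls and 9904 and 7836 in Steap4AKO, and so matched Ddr1 in its lowest and highest control as well. The nearest to Itgb1 were Nup98, of the nuclear pore (0.03), Med14, of the Mediator complex (0.03), and Tmpo, a lamin-binding protein (0.04). These distances are descriptions over the same 6 libraries.

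The ligands, other receptors and signalling partners were tested over all genes in limma. Of 92 tested genes in 9 lists, 0 passed an adjusted p of 0.05, the lowest being 0.0658, and 27 had an unadjusted p under 0.05, where 18.1% of all tested genes did. Of the 92, 26 were above every control in both Steap4AKO libraries and 6 below, where 14.1% and 14.4% of all tested genes were. A log2 difference above 0, called a higher mean in the lists below, was found in 69 of the 92 and in 7826 of all 15006 tested genes. Without Steap4AKO replicate 3, which leaves replicate 2 as the only Steap4AKO library, 13 of them passed, 12 higher and 1 lower. Without Steap4AKO replicate 2 again 0 did.

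The fibrillar collagens, ligands of both kinases and of the integrins, had lower means in Steap4AKO in 7 of 8 genes. Of these, 4 were lower without overlap, where 14.4% of all tested genes were. The median log2 difference was -0.55, against 0.02 over all tested genes. Col1a1 had 26260, 27179, 23067 and 22818 in the controls and 14704 and 17798 in Steap4AKO, 1.53-fold lower by the means (log2 difference -0.61, SE 0.18, adjusted p = 0.16). Col3a1 was 1.53-fold lower (adjusted p = 0.194), from 51198 ± 2938 (SD, n = 4) to 33418 ± 4104 (SD, n = 2), and Col1a2 1.40-fold lower (adjusted p = 0.205). These 3 chains of the main fibrils thus lay below every control in both Steap4AKO libraries, while Ddr1 lay above. The minor chain Col11a2 had 58.2 ± 30.1 (SD, n = 4) against 11.1 ± 5.4 (SD, n = 2), with an adjusted p of 0.194. The list median was -0.29 under quantile normalization and -0.36 with all libraries at the same total.

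The basement membrane and other collagens went in different directions, with 14 of 17 means higher and 3 lower (median 0.94, or 0.27 without Steap4AKO replicate 2). Col4a1, a main chain of the basement membrane, overlapped between the groups, with 37468 ± 3838 (SD, n = 4) against 39655 ± 2557 (SD, n = 2), and its partner Col4a2 was 1.31-fold higher without overlap (adjusted p = 0.349). Col8a1 was 3.17-fold higher (adjusted p = 0.106) and Col16a1 1.92-fold (adjusted p = 0.0754). Col6a3, the large chain of the microfibrillar collagen around adipocytes, had 11023, 11086, 9827 and 9824 in the controls and 4357 and 7315 in Steap4AKO, a log2 difference of -0.88 (SE 0.21, adjusted p = 0.108). Col6a3 was the 1 gene of this list below every control in both Steap4AKO libraries.

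**Figure D3:**
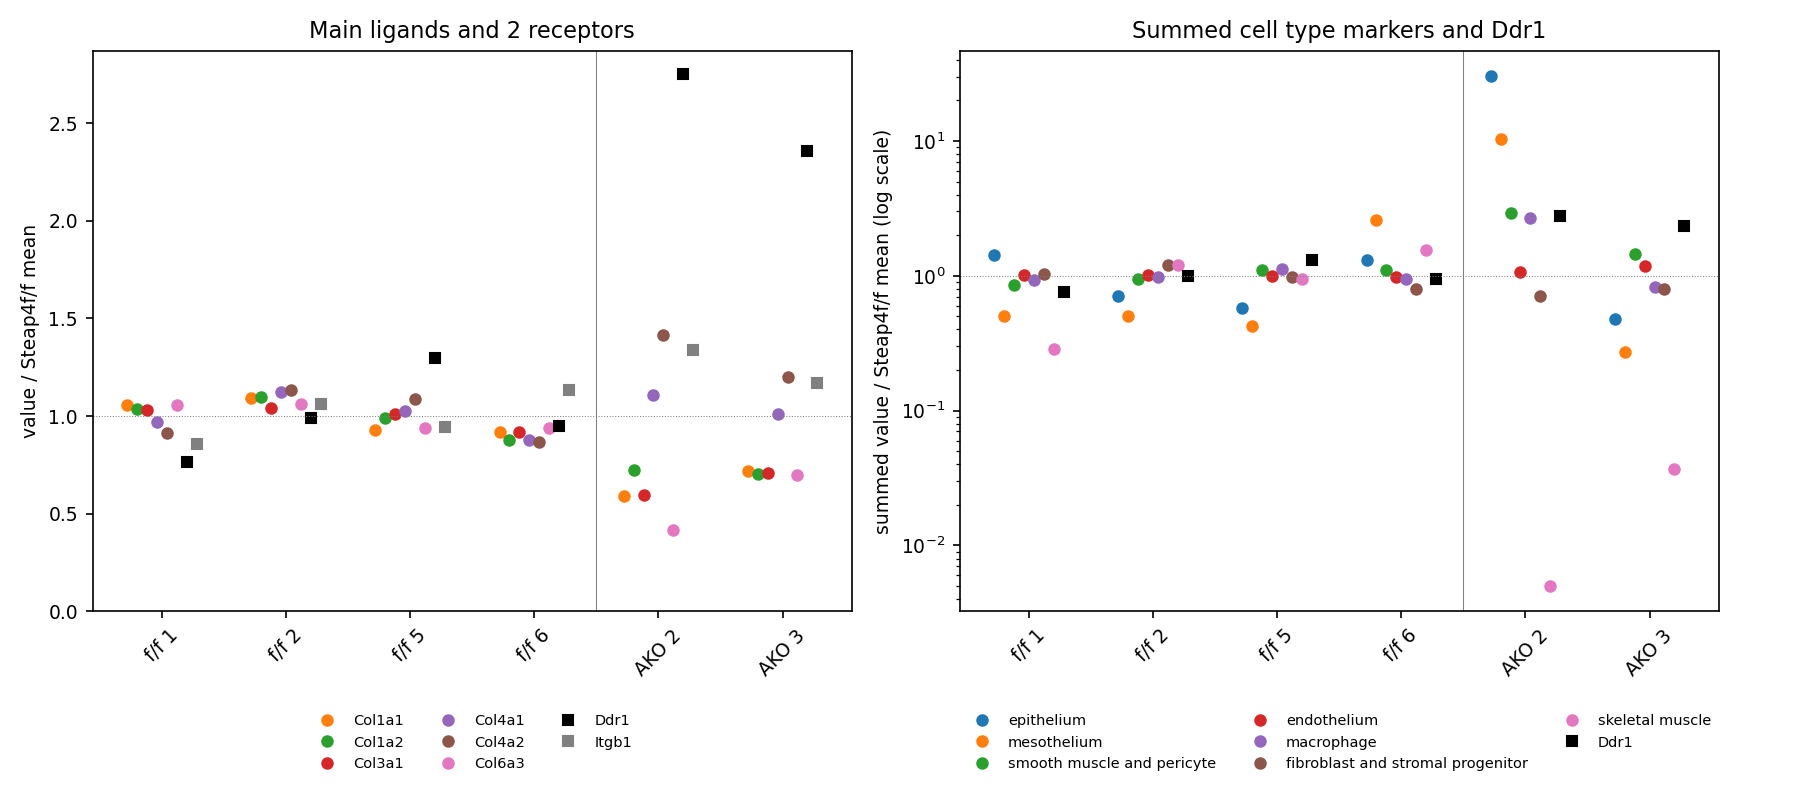
Left, each main collagen ligand, Ddr1 and Itgb1 as a multiple of its Steap4f/f mean in every library; right, summed cell type markers and Ddr1 in the same way, on a log axis. In both Steap4AKO libraries Col1a1, Col1a2, Col3a1 and Col6a3 lie below the controls and Ddr1 above them, and the epithelial and mesothelial sums are high in Steap4AKO replicate 2 but not in replicate 3.

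Other receptors had mostly higher means. Mrc2, which takes up collagen for breakdown, had 776.9, 1285, 1436 and 1234 in the controls and 4726 and 2587 in Steap4AKO, 3.09-fold higher by the means (log2 difference 1.60, SE 0.31, adjusted p = 0.0658), the lowest adjusted p of the 92 genes. All 4 tested genes of that list had higher means (median 0.97, but 0.28 without Steap4AKO replicate 2). Of the laminin-binding chains 3 of 4 had higher means, among them Itga6 at 1.55-fold (adjusted p = 0.158) and Itga7, a chain of muscle, at 1.33-fold (adjusted p = 0.219), both without overlap. Of the chains for fibronectin and other ligands that carry the RGD motif, 6 of 10 had higher means (median 0.40, but 0.03 without Steap4AKO replicate 2 and -0.02 with the muscle marker covariate). Itgb5, a partner of the alpha v chain, was 1.49-fold higher (adjusted p = 0.17) and Itga8 1.66-fold (adjusted p = 0.375), and Itga2b, the platelet chain, 1.60-fold lower (adjusted p = 0.319).

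All 7 leukocyte integrin chains had higher means in Steap4AKO, and their median log2 difference was 1.20. This was 0.71 without Steap4AKO replicate 2 and 2.51 without replicate 3. Itgb2, the common beta chain of leukocytes, had 267.3, 315.8, 522.3 and 358.4 in the controls and 2838 and 562.9 in Steap4AKO (adjusted p = 0.177). Itgax, a chain of dendritic cells and lipid-laden macrophages, had 1677 and 222.5 in Steap4AKO against at most 148.2 in Steap4f/f (adjusted p = 0.13), and Itgad had 130.0 and 54.3 against at most 51.8 (adjusted p = 0.284). The 6 macrophage markers summed to 15892 and 4946 in the Steap4AKO libraries and to 5596 to 6757 in Steap4f/f. In replicate 3 the markers Adgre1 (291.8), Cd68 (453.5) and Csf1r (1408) lay within the control range, and Mrc1, C1qa and C1qb lay below it. In replicate 2 all 6 were above every control. The part of macrophages and other leukocytes in these values was not tested.

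Of the adaptors and kinases that act below integrins, 24 of 28 had higher means (median 0.18), 9 of them without overlap, where 14.1% of all tested genes were. Src, a kinase of focal adhesions, had 250.7, 251.3, 304.9 and 256.9 in the controls and 590.9 and 456.6 in Steap4AKO, 1.97-fold higher (log2 difference 0.97, SE 0.19, adjusted p = 0.0729). Tns3 was 2.01-fold higher (adjusted p = 0.199), which came mostly from Steap4AKO replicate 2, and Zyx, zyxin, 1.57-fold (adjusted p = 0.187). Of 4 integrin inhibitors 2 had higher means and 2 lower, and Flna, filamin A, had 12778 and 6446 in Steap4AKO against at most 6250 in Steap4f/f (adjusted p = 0.259). Of 10 partners and sheddases of the discoidin domain receptors 8 had higher means (median 0.24). Adam10, a protease that sheds Ddr1, was 1.52-fold higher (adjusted p = 0.116), Myh9, a non-muscle myosin that binds Ddr1, 1.3-fold (adjusted p = 0.294), and Ptpn11, a phosphatase recruited by these receptors, 1.23-fold (adjusted p = 0.323), each without overlap.

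**Figure D4:**
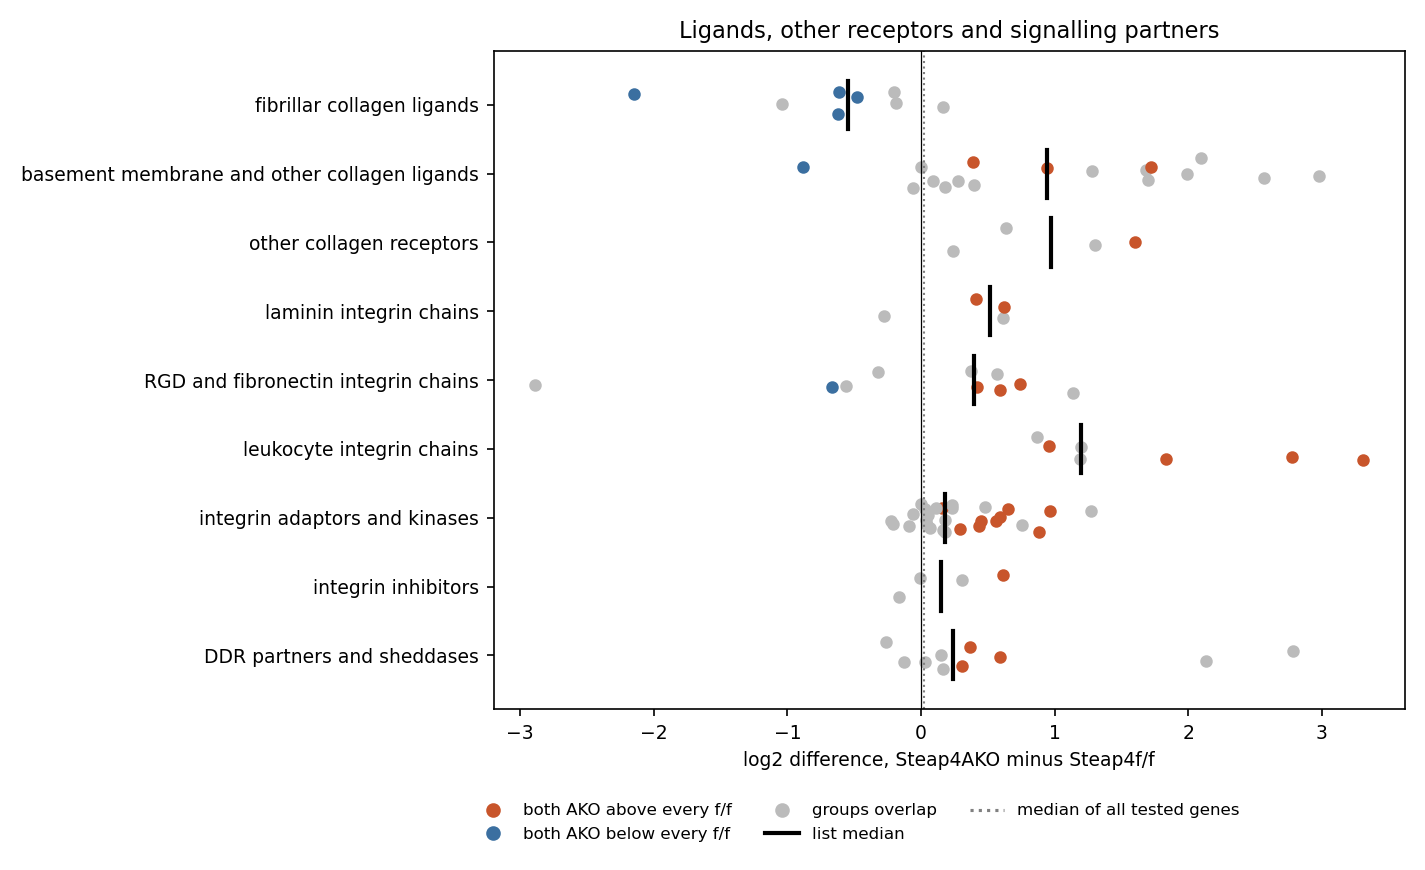
Log2 difference (Steap4AKO minus Steap4f/f, on log2(value + 1)) of each tested gene in the 9 lists, 1 point per gene, with list medians as black bars and the median of all tested genes as a dotted line. The fibrillar collagens have their median at -0.55, the other lists above 0, and no gene passed an adjusted p of 0.05.

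Markers of other cell types were read beside the members. For the marker counts here and in the next paragraph, 14.1% of all tested genes were above every control in both Steap4AKO libraries and 14.4% below. The 11 epithelial markers, from tissue where Ddr1 is high, summed to between 63.8 and 156.7 in Steap4f/f, to 3338 in Steap4AKO replicate 2 and to 53.0 in replicate 3, and 0 of 11 were above every control in both. In replicate 3 Krt19 (4.6) lay below every control and the other epithelial markers lay within the control range, with Epcam at 0 and Krt18 at 2.0. Ddr1 in that library was 2.36-fold above the Steap4f/f mean. The 7 mesothelial markers summed to 2012 and 53.4 in Steap4AKO and to 82.0 to 501.4 in Steap4f/f. For Itga2, the 1 library with a clear signal was Steap4AKO replicate 2. That library had the highest sums of epithelial, mesothelial, smooth muscle and pericyte, macrophage, lymphocyte, platelet, and cartilage and bone markers. The part of these cell types in the values of Ddr1 and Itga2 was not tested in either Steap4AKO library.

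Summed markers of smooth muscle and pericytes, and of endothelium, were above the controls in both Steap4AKO libraries. The 9 smooth muscle and pericyte markers summed to 14088 to 18230 in the controls and to 48265 and 23950 in Steap4AKO, with 5 of 9 above every control in both, and the 7 endothelial markers to 19886 to 20563 against 21436 and 23930, with 3 of 7. In replicate 2 Myh11 (15120), Acta2 (10482), Tagln (4826) and Cnn1 (4471) were above every control, whereas Cspg4 (1518) was below every control. In replicate 3 Acta2, Tagln and Cnn1 lay within the control range. The part of these cell types in the values of Itga1, Itgb1, Itga7 and Itga8 was not tested. The 10 fibroblast and progenitor markers summed to 33784 to 50725 in the controls and to 29674 and 34008 in Steap4AKO, where replicate 3 lay within the control range. Of the 10, 3 were below every control in both Steap4AKO libraries and 0 above. Lower means were found in 7 and higher means in 3, among them Fbn1 (log2 difference 0.78). The part of these cells in the lower fibrillar collagens was not tested either. The 6 Schwann cell markers summed to 7691 to 19050 and to 3645 and 10007. The 12 skeletal muscle markers summed to 122433 to 665097 in the controls and to 2131 and 15580 in Steap4AKO, with 10 of 12 below every control. With their mean level as a covariate the log2 difference of Ddr1 was 1.46 and that of Itga1 was 0.58. That level was 25.2 to 192.7% of the Steap4f/f mean in the controls and 0.52 and 4.59% in Steap4AKO. Since it did not overlap between the groups, a fit with it cannot separate muscle content from genotype.

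Markers of lymphocytes, platelets and cartilage were at low levels. The 6 T and NK cell markers summed to 50.5 to 147.4 in the controls and to 267.0 and 140.3 in Steap4AKO, the 4 B cell markers to 5.7 to 75.4 and to 298.3 and 32.3, and the 2 platelet markers to 228.8 to 458.5 and to 536.9 and 302.5. The 2 cartilage and bone markers in the table summed to 54.4 to 86.8 in the controls and to 269.8 and 130.8 in Steap4AKO, while Itga10, the chain known from cartilage, was not higher there.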

How the data were processed

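Total RNA of inguinal fat was sequenced in 6 libraries, 4 Steap4f/f and 2 Steap4AKO, grouped by the sample titles. The deposited table holds a signal, which the name of the table gives as gene counts after normalization by the authors with DESeq2. The submitters' processing notes name DESeq2 1.12.4, R 4.2.0, RSEM 1.3.3 and STAR 2.7.0e with GRCm38 and mm10, without roles; the annotation and strandedness are not given in the sources used here. Between 31.6% and 56.3% of low values per library lay within 0.1 of a whole read, so a test on counts could not be used. The value of 1 read (0.99 to 1.43) is the best fit per library, so depth was only estimated. Symbols matched 15125 of 15176 genes.

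Differences, Steap4AKO minus Steap4f/f, were fitted on log2(value + 1) with limma 3.58.1 (R 4.3.3, variance trend, two-sided) for 15006 genes with a mean of at least 10, with Benjamini-Hochberg adjustment over all of them and a threshold of 0.05. The log2 scale compresses changes at low values, and a fold is the ratio of the group means. The members and gene lists were chosen with earlier results of these data known. Named genes were all members, from each pathway list those past the threshold or else up to 3 with the largest difference, no overlap and at least 50 as the larger group mean, 6 main collagens, overlapping genes in the table and nearest profiles. Alternatives were other pseudocounts (0.5 and 5), filters (none and a mean of 50), scalings, array weights, a robust prior, a muscle covariate and each library left out.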

Additional observations from a re-analysis of the deposited data

Results flagged for a closer look

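In a group of 4, a library was singled out when its gap to the nearest other library took up more of the group's range than Dixon's critical value allows, which chance gives in about 1 in 20 groups. Of 32 genes checked in Steap4f/f, 2 had such a library. Ddr2 was at 2201 in Steap4f/f replicate 1, a gap of 0.868 of the range. Src was at 304.9 in Steap4f/f replicate 5, a gap of 0.885 of the range.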

How the results depend on the processing

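With 2 Steap4AKO libraries, of which 1 stood apart, precision is limited by their number. The count of the 92 ligand and partner genes past the threshold was 0 under all 10 alternatives besides leaving out a library, and ranged from 0 to 13 when each library was left out, with 13 without Steap4AKO replicate 3. Over all genes the count was 71, and 1 to 821 under the alternatives. The log2 difference of Ddr1 ranged from 1.25 to 1.56 while its adjusted p missed the threshold under 10 of 16 alternatives, and the median over the 7 members from 0.31 to 0.57. That median was not computed with array weights, since Itga2 was under the minimum. Ddr2 had -0.023 with the muscle marker covariate and -0.027 to 0.50 with each library left out. Itga11 had 0.12 with all libraries at the same total, 0.037 when that total left out muscle and mitochondrially encoded genes, and -0.44 to 0.31 with each library left out, with values above 0 when Steap4f/f replicate 5 (0.0018), Steap4f/f replicate 2 (0.13) or Steap4AKO replicate 2 (0.31) was the one left out. Col4a1 had -0.0061 with the covariate. The cause of these reversals was not tested. The muscle marker level did not overlap between the groups, so a fit with it cannot separate muscle content from genotype. No paired analysis was possible because the groups share only replicate number 2. The edgeR test, planned for whole reads, was not run.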
